A study of Mus musculus with 2 samples.

Results

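The 42 genes described here encode proteins that take a cell through mitosis and cytokinesis, and they were chosen by symbol from the 32544 gene identifiers counted in OC-induced bone marrow-derived monocytes (BMDMs). All 42 symbols were found. Their levels were read in cells with at least 500 detected genes and at most 10% mitochondrial counts, first over all such cells and then in a cycling gate. A cell was in the gate when it held at least 5 counts over Mki67, Top2a, Aurka and Cdk1 together. Osteoclasts (OCs) are myeloid cells that resorb bone, and their precursors divide under M-CSF before RANKL drives them out of the cell cycle and toward fusion.

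The scRNA-Seq series held 1 control library and 1 LysM-Cre;Arid1afl/fl library, the latter called the mutant library here. Both cultures came from mice of 4 to 6 weeks and were grown in 100 ng/ml RANKL together with M-CSF at 50 ng/ml, with cells taken 24 h after RANKL, per the study's methods. LysM-Cre is driven from the lysozyme M (Lyz2) promoter and deletes floxed Arid1a in myeloid cells, not in other cells of the culture. The label of the control gives no further genotype, and neither label says how many animals went into a culture. After filtering there were 6269 control cells with a median of 23978 counts and 5663 mutant cells with a median of 21734. A count is a unique molecular identifier (UMI), which marks 1 captured mRNA molecule. Because each molecule is read at its 3′ end, levels are not scaled to transcript length, and they are given as UMIs per 1e6 UMIs of the cells concerned (CPM). With 1 library per genotype no test was possible, and every interval in parentheses is a 95% interval for counting error only.

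Arid1a reached 51.9 CPM (50.8 to 53.0) in control cells and 20.4 CPM (19.7 to 21.2) in mutant cells. Reads at the 3′ end can still come from a recombined allele. Monocytic markers were present in both libraries, with Csf1r at 256 and 402 CPM. Markers of other cells also differed. The 4 neutrophil markers ranged from 11.95 to 111 CPM in the control library and from 73.8 to 880 CPM in the mutant library, and the 4 stromal markers ranged from 0.196 to 1.57 CPM and from 0.936 to 4.26 CPM. The 3 B cell markers were at most 1.06 CPM, Cd3e and Trbc2 had no UMI in either library, and the erythroid markers had at most 4 UMIs per gene. The libraries shared 8 barcodes.

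In a dividing cell, cyclin B and Cdk1 start mitosis, Aurora and Polo kinases build the spindle, and kinetochores attach chromosomes to its microtubules. A checkpoint holds the anaphase-promoting complex (APC/C) until attachment is complete, and a central spindle then places the cleavage furrow. Most of these genes are transcribed late in the cycle under the MuvB, B-Myb and FoxM1 proteins and are silent in resting cells. The product of Mki67 coats the surface of mitotic chromosomes and is the usual antibody marker of proliferating cells.

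Over all cells, Mki67 was the lowest member relative to the control library and the single one past 1.5-fold in either direction. Mki67 (ENSMUSG00000031004, chr7:135291513-135318299 on the minus strand of GRCm39) had 29148 control UMIs, a level of 178 CPM (176 to 180). Its 13730 mutant UMIs gave 104 CPM (103 to 106). The log2 ratio of mutant over control was -0.77 (-0.80 to -0.74). The other 41 members summed to 2707 CPM in the control library and 2841 CPM in the mutant library, a log2 ratio of 0.070 (0.063 to 0.076). So the mutant library had less Mki67 and, at these totals, slightly more of the remaining mitotic transcripts.

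A mean of at least 20 CPM over both libraries was reached by 39 of the 42 members, all but Ttk, Kif2c and Ect2. Of these 39, 1 was at least 1.5-fold lower in the mutant library and 0 were at least 1.5-fold higher. Among all 5219 genes at this level, 5.61% were at least 1.5-fold lower and 12.6% at least 1.5-fold higher. The share of members that were lower is thus no larger than that of all genes, and 0 members lay past 1.5-fold on the side where more genes did. The median log2 ratio of the 39 members was 0.10, beside 0.022 over all those genes. Mki67 lay at or above 2.78% of them.

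The 39 members split into 27 above 0 and 12 below 0, and this split became 18 and 21 when the totals were taken without mitochondrial and ribosomal protein genes. That scaling moved the median of all genes from 0.022 to -0.088, so small log2 ratios are best read against it. After Mki67 the lowest members were Spc24, Kif23, Cdca8 and Esco2, at -0.35, -0.27, -0.25 and -0.23. The highest were Nusap1, Plk1, Aspm, Kif20b and Kif20a, at 0.56, 0.49, 0.45, 0.41 and 0.39.

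**Figure D1:**
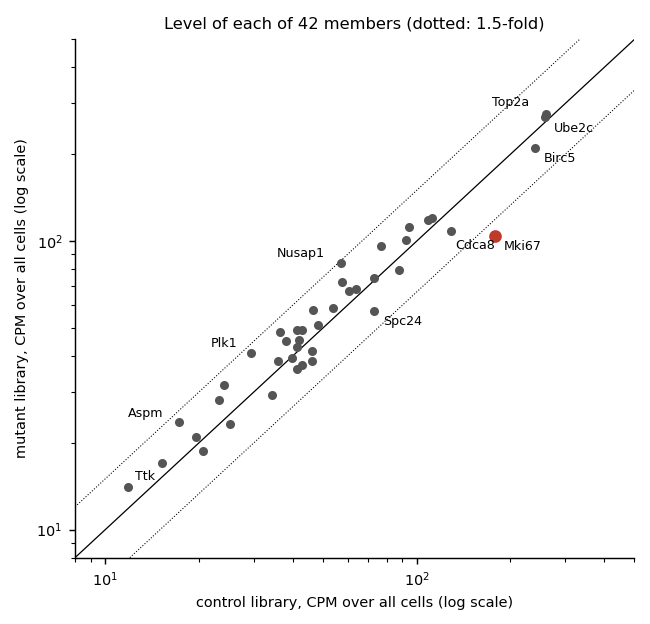
Level of each of the 42 members over all cells, control library on the x axis and mutant library on the y axis, both in CPM on log scales, with 1 point per gene. The solid line marks equal levels and the dotted lines 1.5-fold; Mki67 (red, 178 and 104 CPM) is the only point outside the dotted lines.

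Promoter sequences of 4 members are shown because Mki67 differed from the members it is usually read with. Late cell cycle promoters often carry CCAAT boxes, bound by NF-Y, and a CHR element, bound by MuvB complexes. The window runs from 250 bases before to 50 bases after the GENCODE start of the canonical transcript, in GRCm39. Top2a stands for abundant members close to a ratio of 0, and Ccnb2 and Nusap1 for members that were higher in mutant cycling cells. These were picked after their values were seen. Capitals mark CCAAT on either strand and the CHR letters TTTGAA or TTCGAA on either strand; none of the marked words overlap.
Mki67 (chr7:135318250-135318549, minus strand): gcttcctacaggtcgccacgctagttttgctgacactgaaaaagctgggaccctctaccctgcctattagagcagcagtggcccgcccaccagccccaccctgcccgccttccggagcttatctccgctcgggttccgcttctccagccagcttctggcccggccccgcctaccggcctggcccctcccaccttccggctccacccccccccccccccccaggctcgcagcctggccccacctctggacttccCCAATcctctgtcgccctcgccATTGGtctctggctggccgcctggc
Top2a (chr11:98914992-98915291, minus strand): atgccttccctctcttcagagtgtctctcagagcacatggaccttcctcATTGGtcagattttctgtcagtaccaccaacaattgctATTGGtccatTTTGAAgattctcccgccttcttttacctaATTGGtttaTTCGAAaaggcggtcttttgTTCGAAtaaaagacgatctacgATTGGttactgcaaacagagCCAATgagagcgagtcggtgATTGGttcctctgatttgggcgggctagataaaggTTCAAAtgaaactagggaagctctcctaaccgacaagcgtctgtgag
Ccnb2 (chr9:70328825-70329124, minus strand): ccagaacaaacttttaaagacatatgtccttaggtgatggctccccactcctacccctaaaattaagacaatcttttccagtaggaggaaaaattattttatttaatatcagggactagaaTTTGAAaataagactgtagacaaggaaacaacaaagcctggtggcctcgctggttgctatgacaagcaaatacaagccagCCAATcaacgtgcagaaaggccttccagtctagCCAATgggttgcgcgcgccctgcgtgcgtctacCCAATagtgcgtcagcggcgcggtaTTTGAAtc
Nusap1 (chr2:119448529-119448828, plus strand): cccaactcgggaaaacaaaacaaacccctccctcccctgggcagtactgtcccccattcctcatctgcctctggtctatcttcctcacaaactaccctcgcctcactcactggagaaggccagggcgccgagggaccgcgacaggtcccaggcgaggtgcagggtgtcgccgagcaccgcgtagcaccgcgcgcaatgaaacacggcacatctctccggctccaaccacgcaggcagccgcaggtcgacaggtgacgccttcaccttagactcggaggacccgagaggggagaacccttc

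The Mki67 window held no CHR and 2 CCAAT words, which begin 4 and 26 bases after the start. Top2a held 4 CHR and 6 CCAAT words, Ccnb2 held 2 and 3, and Nusap1 held none of either. A CHR word was present in 24 of the 42 windows (57.1%), beside 18.6% of 21488 windows of the same length at coding genes. A CCAAT word was present in 30 of 42 (71.4%), beside 39.9%, and both in 20 of 42 (47.6%), beside 8.20%. Without Mki67, the 24 members with a CHR word had a median log2 ratio of 0.15 over all cells, and the 17 without it 0.032. Nusap1, the highest member, and Mki67, the lowest, thus both lack the CHR letters in this window. A match is a description of letters and not of a bound site.

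Among the genes of chromosome structure, Top2a (chr11:98883769-98915062, minus strand), a topoisomerase that untangles sister chromatids, had 42646 control UMIs and 36394 mutant UMIs. Its level was 261 CPM (258 to 263) and 277 CPM (274 to 280), a log2 ratio of 0.087 (0.067 to 0.11). For each Top2a UMI the control library held 0.684 UMIs of Mki67 and the mutant library 0.377. Esco2, which acetylates cohesin while DNA is replicated, was at 34.3 and 29.2 CPM, a log2 ratio of -0.23 (-0.29 to -0.18). Of the genes most used as proliferation markers, Mki67 was therefore past 1.5-fold and Top2a close to equal in the libraries.

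Of the 7 cyclins, mitotic kinases and their regulators, 6 were above 0, with a median of 0.10, and 3 of the 6 (Ccna2, Ccnb1 and Cdkn3) went below 0 with totals that left out mitochondrial and ribosomal protein genes. Cdk1, the kinase that starts mitosis, was at 109 and 118 CPM. Its partners Ccna2 and Ccnb1 were at 72.7 and 74.3 CPM and at 63.8 and 68.4 CPM. Ccnb2, the other B-type cyclin, was at 46.3 CPM (45.3 to 47.3) and 57.9 CPM (56.6 to 59.2), a log2 ratio of 0.32. Plk1 (chr7:121758646-121769108), a kinase of spindle assembly and mitotic exit on the same chromosome as Mki67, was at 29.3 CPM (28.4 to 30.1) and 41.05 CPM (39.96 to 42.2), a log2 ratio of 0.49. Aurka, which matures the spindle poles, was the member below 0, at 41.1 and 35.9 CPM. Cdkn3, a phosphatase of Cdk proteins, was at 48.3 and 51.4 CPM.

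Over all cells the spindle checkpoint kinases did not go the same way. Bub1 went from 42.7 CPM (41.7 to 43.7) in control cells to 37.3 CPM (36.2 to 38.3) in mutant cells, whereas Bub1b was at 41.3 CPM (40.4 to 42.3) and 49.2 CPM (48.0 to 50.4). Ttk was at 11.8 and 14.1 CPM. Among APC/C partners, its activator Cdc20 was at 38.0 and 45.0 CPM. Its E2 enzyme Ube2c was at 257 and 269 CPM, and its inhibitor Fbxo5 at 46.2 and 41.7 CPM.

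Over all cells all 4 genes of the chromosomal passenger complex, which corrects faulty attachments and later acts at the midbody, were below 0. Their median log2 ratio was -0.17, although Aurkb was at 0.023 when each cell had equal weight. In cycling-gate cells Aurkb and Birc5 were above 0, at 0.14 and 0.052, and Incenp and Cdca8 below 0, at -0.021 and -0.10. Summed there, the 4 had a log2 ratio of 0.0068 (-0.0097 to 0.0232). The levels that follow are over all cells. Birc5 was at 239 CPM (237 to 242) and 210 CPM (208 to 213), and Cdca8 at 129 CPM (128 to 131) and 109 CPM (107 to 111). Incenp was at 87.9 and 79.4 CPM. Aurkb, the kinase of the complex, was at 39.8 CPM (38.8 to 40.7) and 39.5 CPM (38.4 to 40.6), with overlapping intervals. None was past 1.5-fold.

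Of the 8 centromere and kinetochore genes, 6 were above 0, and Cenpa and Knstrn among them went below 0 with totals that left out mitochondrial and ribosomal protein genes. Cenpe, a kinesin that congresses chromosomes, was at 57.7 and 72.0 CPM, and Cenpf at 77.0 and 96.0 CPM. Subunits of the NDC80 complex, which grips the microtubule, differed in direction over all cells. Ndc80 was at 23.2 and 28.1 CPM and Spc25 at 42.7 and 49.2 CPM, while Spc24 was at 73.0 CPM (71.7 to 74.3) and 57.4 CPM (56.1 to 58.7) and Nuf2 at 25.1 and 23.2 CPM. Cenpa, the histone H3 variant of centromeres, was at 112 and 120 CPM, and Knstrn at 36.0 and 38.5 CPM.

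The 6 spindle genes at 20 CPM or more were all above 0, apart from Kif4 at -0.0060 with totals that left out mitochondrial and ribosomal protein genes. Nusap1 (chr2:119448779-119481725, plus strand), which bundles spindle microtubules near chromosomes, was at 57.3 CPM (56.1 to 58.5) and 84.2 CPM (82.6 to 85.8), a log2 ratio of 0.56 (0.52 to 0.59). Aspm, a spindle pole protein, was at 17.2 and 23.5 CPM. Tpx2, Kif11, Hmmr and Kif4 had log2 ratios between 0.10 and 0.15, and Kif2c was at 20.6 and 18.7 CPM. In cytokinesis, Prc1, which crosslinks the central spindle, was at 94.3 and 112 CPM, with Kif20a at 24.1 and 31.6 CPM and Kif20b at 36.5 and 48.5 CPM. Kif23 and Racgap1 form the centralspindlin complex together, and over all cells they went different ways. Kif23 was at 46.2 CPM (45.2 to 47.3) and 38.3 CPM (37.3 to 39.4), and Racgap1 at 54.0 CPM (52.9 to 55.2) and 58.6 CPM (57.3 to 59.97). Ect2 was at 15.2 and 17.0 CPM and Anln at 41.3 and 43.0 CPM. Cdk1, Ccna2, Aurka, Cdkn3, Cdc20, Ube2c, Cdca8, Spc25, Nusap1, Kif4, Prc1 and Kif20a overlap a coding gene on the opposite strand, and since the strand setting of the counting was not stated their levels are uncertain to that extent. Mki67 and Top2a have no such overlap.

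The cycling gate took 3819 of the 6269 control cells, or 60.9% (59.7 to 62.1), and 2833 of 5663 mutant cells, 50.0% (48.7 to 51.3). The difference was -10.9 percentage points (-12.7 to -9.10). Mki67 is itself a gene of the gate. With at least 5 UMIs over Top2a, Aurka and Cdk1 alone, the shares were 52.0% and 44.5%, a difference of -7.51 points (-9.31 to -5.70). The gate also depends on depth. When each cell was thinned to 5000 UMIs, which shallower cells could not be (168 control, 351 mutant), and the gate set to at least 3 UMIs, the shares were 39.5% and 33.5%. Thinned and without Mki67 they were 28.6% (27.4 to 29.7) and 28.0% (26.8 to 29.2), a difference of -0.576 points (-2.24 to 1.09), whose interval holds 0.

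Inside the gate Mki67 was again lowest, and the ratios of the other members were higher than among all cells. Summed, those 41 stood at 0.26 on the log2 scale here and at 0.070 among all cells. The gate took 60.9% of control but 50.0% of mutant cells, yet most UMIs of each member in both libraries. For Nusap1 it held 9116 of 9376 control and 10719 of 11068 mutant UMIs. How much of the rise comes from this choice of cells was not tested, so it is not read as a change within dividing cells. Mki67 was at 247 CPM in control and 162 CPM in mutant gate cells, a log2 ratio of -0.61 (-0.64 to -0.58). Of 41 members with a mean of 20 CPM, 1 (Mki67) was at least 1.5-fold lower, where 5.43% of 5306 genes were, and 4 were at least 1.5-fold higher, where 12.7% of genes were. The 4 were Nusap1 at 80.2 and 134 CPM, Plk1 at 40.1 and 62.6 CPM, Aspm at 23.9 and 36.9 CPM and Ccnb2 at 47.5 and 72.8 CPM. Their log2 ratios were 0.74, 0.64, 0.63 and 0.62. The median over the 41 members was 0.28, beside 0.025 over all genes of that level, and 33 members were above 0, or 29 with totals that left out mitochondrial and ribosomal protein genes.

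Both counts in the gate depended on how cells were chosen and weighted. Mki67 was no longer past 1.5-fold with doublets left out, at -0.58, with equal weight per cell, at -0.49, or in the thinned gate, at -0.56. The number of members at least 1.5-fold higher was 1 with TMM factors and 8 in the thinned gate. In the gate that does not use Mki67 the log2 ratio of Mki67 was -0.64 (-0.67 to -0.61), from 256 and 164 CPM, and 4 members were again at least 1.5-fold higher.

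To see the members in dividing cells that the gene itself had not helped to choose, each member was read in cells with over 10 UMIs of the other 41 at 5000 UMIs per cell. Between 2635 and 2850 control cells and between 1963 and 2092 mutant cells met this, by member. Mki67 was at 302 CPM in the control and 202 CPM in the mutant cells, a log2 ratio of -0.58 (-0.61 to -0.55). It was the lowest of the 42, and 38 members were above 0. The share of all genes above 0 was not computed for these cells. Cells past the limit were not matched further. At least 40 UMIs over the 41 members other than Mki67 were held by 245 control and 527 mutant cells. For members other than Mki67, the other 41 include Mki67, which was lower in the mutant library. Whether either point bears on the 38 was not tested. Ccnb2 was at 61.5 and 113 CPM, a log2 ratio of 0.88 (0.82 to 0.93). Next to it were Nusap1 at 0.81, Plk1 at 0.76, Aspm at 0.72, Kif20a at 0.70, Kif20b at 0.64, Cdkn3 at 0.63 and Cenpf at 0.60. At the other end, beside Mki67, were Esco2 at -0.047 (-0.12 to 0.023), Cdca8 at -0.019 (-0.054 to 0.016), Spc24 at -0.016 (-0.066 to 0.035) and Incenp at 0.019 (-0.023 to 0.062), whose intervals hold 0. Bub1, Nuf2 and Kif23, which were below 0 over all cells, were at 0.12 (0.059 to 0.18), 0.18 (0.10 to 0.25) and 0.049 (-0.0073 to 0.11) here. With over 20 UMIs of the others Mki67 was at -0.62 and Ccnb2 at 0.92, while Esco2 was at -0.17 (-0.27 to -0.078) and Incenp at -0.059 (-0.11 to -0.0081), with intervals below 0.

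**Figure D2:**
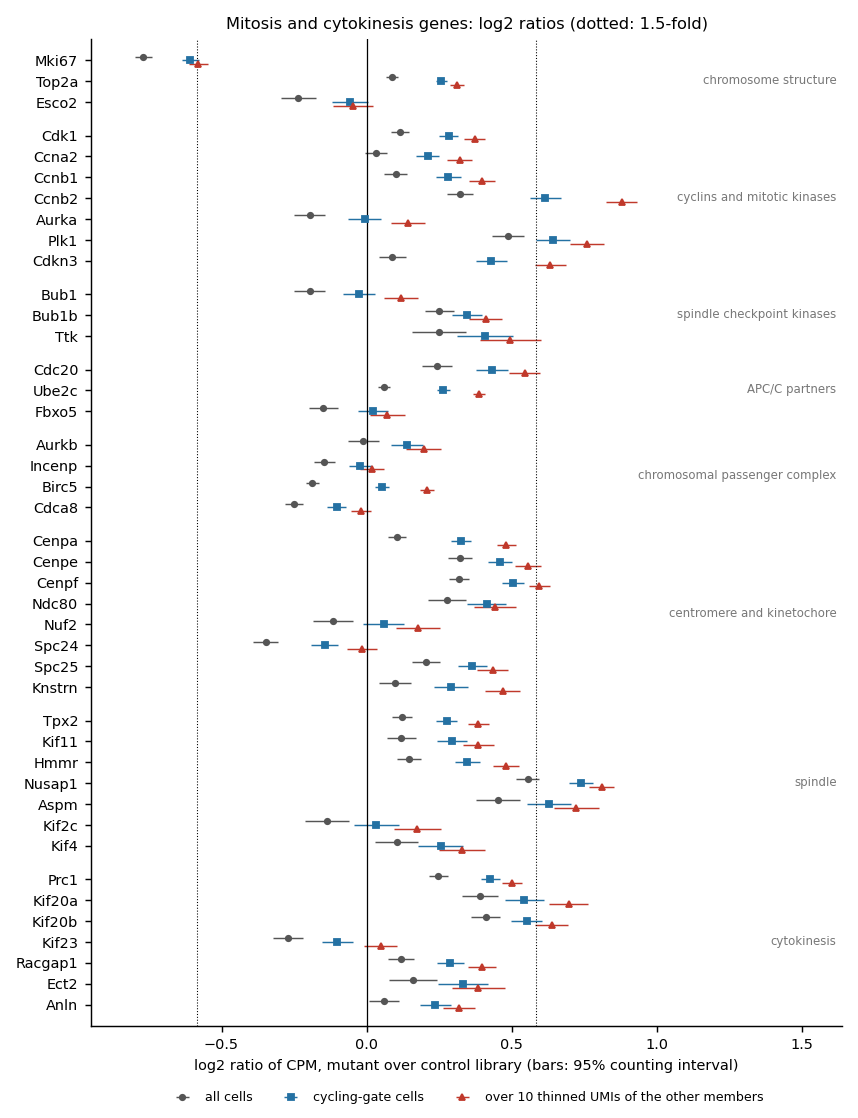
Log2 ratio of CPM, mutant over control library, for each of the 42 members (rows, grouped by role) over all cells (grey circles), in cycling-gate cells (blue squares) and in cells with over 10 thinned UMIs of the other members (red triangles). Bars are 95% counting intervals and dotted lines 1.5-fold. Mki67 lies left of every other member in each set, at -0.77, -0.61 and -0.58.

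The cells that hold these transcripts were distributed differently in the libraries. Summed over the 41 members other than Mki67, a control cell thinned to 5000 UMIs had a median of 9 UMIs, with quartiles of 3 and 18, and a mutant cell a median of 6, with quartiles of 2 and 19. The 90th percentile was 30 in the first library and 39 in the second, while the means were 12.6 and 13.4. Cells with none of these transcripts made up 5.75% (5.18 to 6.37) of the control library and 11.3% (10.4 to 12.2) of the mutant one. Cells with 6 to 20 were more frequent in the control library, in bins of 6 to 10 UMIs (19.8% and 14.1%) and 11 to 20 UMIs (23.4% and 14.9%). Cells with over 20 made up 21.3% (20.3 to 22.4) and 23.6% (22.4 to 24.7).

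The libraries also differed among the cells with the most mitotic transcripts. At least 40 such UMIs were held by 245 control cells, 4.02% (3.54 to 4.54), and by 527 mutant cells, 9.92% (9.13 to 10.8). At least 60 were held by 13 control cells, 0.213% (0.113 to 0.364), and by 115 mutant cells, 2.17% (1.79 to 2.59). These limits were set after the distribution was seen. Among the cells with at least 40, doublet calling marked 4 control and 13 mutant cells, and 1 and 15 were neutrophil-like or stromal-like by their markers. With all marked cells of these kinds left out, the shares were 4.17% and 10.1%. A mutant library with a lower median and a similar mean thus held more cells at both ends, with few or no mitotic transcripts and with very many.

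**Figure D3:**
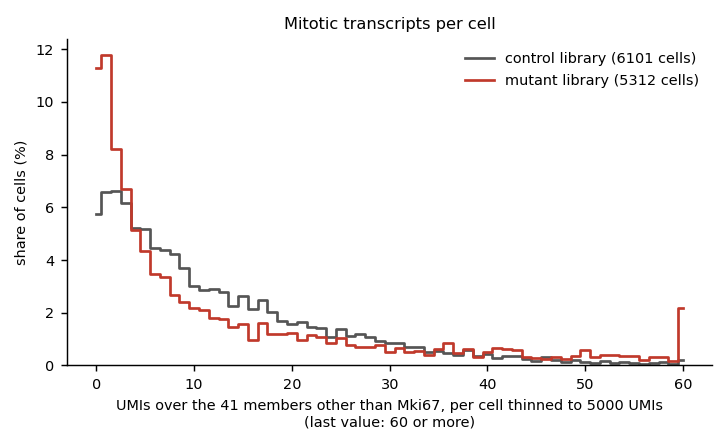
Share of cells (y axis, %) by the number of UMIs over the 41 members other than Mki67 (x axis), each cell thinned to 5000 UMIs, for 6101 control cells (grey) and 5312 mutant cells (red); the last value holds cells with 60 or more. The mutant line is higher at 0 UMIs (11.3% and 5.75%) and at 60 or more (2.17% and 0.213%), and the control line holds more cells from 6 to 10 UMIs (19.8% and 14.1%) and from 11 to 20 UMIs (23.4% and 14.9%).

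The share of cells with at least 1 UMI at this depth was read for each member. For Mki67 it was 44.3% (43.1 to 45.6) in the control and 31.1% (29.9 to 32.4) in the mutant library. Birc5 was detected in 58.3% and 45.0%, although its CPM differed by -0.19 on the log2 scale. Ube2c was detected in 48.0% (46.8 to 49.3) and 38.0% (36.6 to 39.3), while its CPM was 0.061 higher on that scale, and Top2a, Ccnb1, Cdkn3 and Cenpa also had a lower share with a higher CPM. For these 5 genes the share and the level go different ways at these totals, so no order of the libraries was read from the share. With totals that left out mitochondrial and ribosomal protein genes their levels lay slightly below 0 too, between -0.048 for Ube2c and -0.0050 for Cenpa. Nusap1 was detected in 17.98% and 22.9% and Plk1 in 10.98% and 14.7%, in the direction of their levels.

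**Figure D4:**
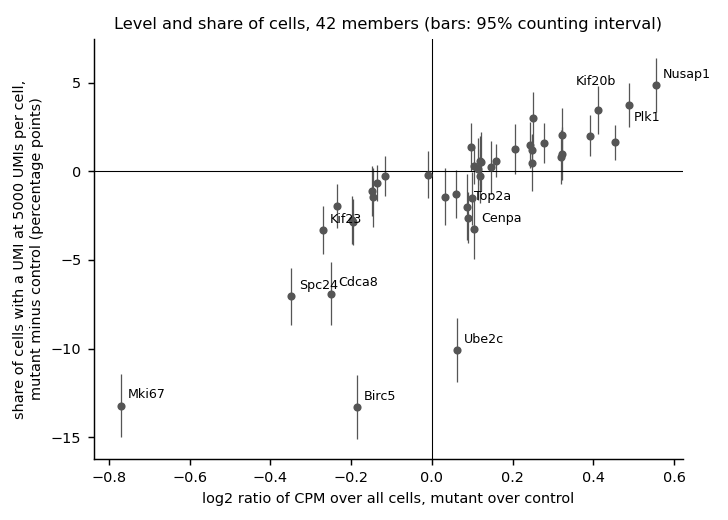
Difference in the share of cells with a UMI at 5000 UMIs per cell, mutant minus control in percentage points (y axis), against the log2 ratio of CPM over all cells (x axis), 1 point per member, with bars for the 95% counting interval of the difference. Mki67 and Birc5 have similar share differences (-13.2 and -13.3 points) at log2 ratios of -0.77 and -0.19, and Ube2c lies at -10.1 points with a ratio of 0.061.

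The departure of Mki67 was then read in bins of cells by their counts of the other members. In cells with none of them, Mki67 had a control level of 7.35 CPM (5.67 to 9.36) and a mutant level of 6.48 CPM (5.18 to 7.999), with overlapping intervals. There 3.99% of control and 3.51% of mutant cells had a Mki67 UMI after thinning. Before thinning, the control and mutant cells of this bin had median depths of 23108 and 20610 UMIs. Whether shares of this size are background was not tested. In every bin with UMIs of the other members Mki67 was lower in the mutant library. Its log2 ratio was -0.58 (-0.77 to -0.38) at 1 to 2 UMIs, -0.53 at 3 to 5 and -0.51 at 6 to 10. It was -0.83 (-0.89 to -0.77) at 11 to 20, from 226 and 127 CPM, and -0.62 (-0.65 to -0.58) at over 20, from 381 and 248 CPM. In the cells with at least 40 it was -0.66, from 475 and 300 CPM. So Mki67 climbed with the other mitotic transcripts in both libraries, and in each bin above 0 its level was lower in the mutant library. At 1 to 2 UMIs the shares of cells with a Mki67 UMI were close, 9.42% and 9.22% after thinning. A bin is a range and is not matched inside. That bin held 402 control and 626 mutant cells with 1 UMI, and 405 and 437 with 2. A part of this in the ratios was not tested.

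**Figure D5:**
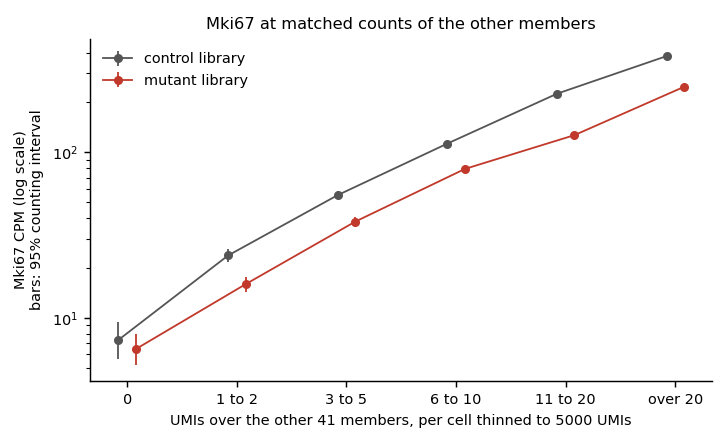
Mki67 level in CPM (y axis, log scale) in cells binned by UMIs over the other 41 members (x axis), each cell thinned to 5000 UMIs for binning, in the control (grey) and mutant (red) library with 95% counting intervals. Levels run from 7.35 to 381 CPM in control cells and from 6.48 to 248 CPM in the mutant library, and the lines separate in every bin above 0.

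Mki67 was also read by cycle state, set by at least 3 thinned UMIs over a list of 38 DNA replication and S-phase genes and over the 41 other members. Most cells passed on both, 76.6% of control and 64.7% of mutant cells, and there Mki67 was at 218 and 143 CPM, a log2 ratio of -0.61 (-0.64 to -0.58). In cells that passed on S-phase genes alone it was -0.59 (-0.78 to -0.40). In the 272 control and 212 mutant cells that passed on mitotic genes alone it was at 89.1 and 98.1 CPM, a log2 ratio of 0.14 (-0.045 to 0.32), whose interval holds 0. With a limit of 10 UMIs, which left 902 and 906 cells in that state, its log2 ratio was -0.42 (-0.47 to -0.36), and -0.65 and -0.72 in cells past both limits and in those past the S-phase limit alone. In cells past neither limit it was -0.64 (-1.34 to 0.056) at 3 UMIs, an interval that holds 0, and -1.15 (-1.33 to -0.97) at 10 UMIs, in 1438 control and 1547 mutant cells with 23.9 and 10.8 CPM, the lowest ratio of the 4 states at that limit. The states are ranges cut from counts: 780 control and 792 mutant cells lay within 1 UMI of the mitotic limit of 3.

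Cell identity was set beside these values. In cells with at least 3 thinned UMIs over Ctsk, Mmp9, Acp5 and Dcstamp, 587 control and 198 mutant cells, Mki67 was at 162 CPM (156 to 168) and 91.2 CPM (82.9 to 100), a log2 ratio of -0.83 (-0.98 to -0.69). In cells with fewer it was -0.78, from 180 and 105 CPM. In these OC-marker cells the other 41 members summed to 2524 and 2331 CPM, a log2 ratio of -0.11. In the rest they summed to 2731 and 2865 CPM, a log2 ratio of 0.069. The markers themselves differed unevenly over all cells. Ctsk was at 57.0 and 20.5 CPM and Mmp9 at 58.0 and 6.05 CPM, with Acp5 at 105 and 69 CPM and Dcstamp at 11.8 and 2.31 CPM. Whether the OC-marker cells of the libraries are of the same kind was not tested. The 19 control and 89 mutant cells with at least 1% of their UMIs on neutrophil markers carried mitotic transcripts too, with Mki67 at 290 CPM (218 to 377) and 244 CPM (216 to 274). Without them and the stromal-like cells, 3 per library, Mki67 was at 178 and 103 CPM, a log2 ratio of -0.79, slightly larger in size than with them.

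Other genes of the pathway were read from lists of kinetochore, condensin and cohesin, spindle, G2/M and APC/C genes. Of 107 symbols 106 were measured, and 62 had a mean of at least 20 CPM. Over all cells 3 of the 62 were at least 1.5-fold lower and 2 at least 1.5-fold higher. Among all genes at this level 5.61% were lower and 12.6% higher, so neither count stands out. The median log2 ratio of the 62 was 0.062, beside 0.022 over all those genes. Mybl2 (chr2:162896435-162926614, plus strand), which encodes the B-Myb activator of late cell cycle genes, was lowest, at 36.4 CPM (35.4 to 37.3) and 17.3 CPM (16.6 to 18.1), a log2 ratio of -1.07 (-1.14 to -0.9992). Foxm1, its partner in activating mitotic genes, was at 18.4 and 18.1 CPM, a log2 ratio of -0.023 (-0.10 to 0.055). Anapc15, an APC/C subunit, was at 64.6 and 39.4 CPM, and the centromere gene Cenpm at 25.1 and 16.7 CPM. Pttg1, which encodes securin, the inhibitor of separase, was highest, at 31.3 CPM (30.5 to 32.2) and 76.9 CPM (75.5 to 78.5), a log2 ratio of 1.30 (1.25 to 1.35). Ncapg2, a condensin II subunit, was at 37.4 and 64.4 CPM. In gate cells Mybl2 was at -0.92 and Pttg1 at 1.32. There 2 of 73 genes were lower and 4 higher by 1.5-fold, beside 5.43% and 12.7% of all genes. A part of Mybl2 in the values of Mki67 was not tested.

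Mki67 was finally set beside its neighbours on chromosome 7. The nearest 3 genes of at least 20 CPM on each side were Ptpre, Bccip and Ctbp2, and 9430038I01Rik, Glrx3 and Ppp2r2d. Ptpre, which ends 0.00349 Mb from Mki67 on the opposite strand, was at 50.2 and 37.5 CPM, a log2 ratio of -0.42 (-0.48 to -0.37). Glrx3 was at 141 and 98.4 CPM, a log2 ratio of -0.52 (-0.55 to -0.49). The others lay between -0.32 and -0.031. All 6 were below 0 at these totals and none was past 1.5-fold. The interval of Bccip, at -0.031 (-0.078 to 0.015), holds 0. The median over all genes of at least 20 CPM was 0.022, and the share of all genes below 0 was not computed. Whether their levels bear on that of Mki67 was not tested.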

How the data were processed

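Cells were captured with a 10x Genomics 3′ kit, and the authors deposited UMI counts, not normalized, for every gene and barcode (Cell Ranger 6.1.0, as the file headers state). GRCm39 is the build named for the study. No doublet filter was stated, nor whether the counting used strand. UMI collapsing removes PCR copies of a molecule, and intervals cover counting error only.

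Depth was 164004706 UMIs over 6455 control barcodes and 131800059 UMIs over 5865 mutant barcodes. A cell had to have 500 genes and no more than 10% mitochondrial UMIs, which 186 and 202 barcodes did not. UMIs were summed per library and scaled to CPM, with exact Poisson intervals. For log2 ratios the interval was exact, from the binomial split of both libraries' counts, shares have exact binomial (Clopper-Pearson) intervals, and differences of shares combine them by square-and-add. Groups follow the genotype in the labels. With 1 library per group there is no p-value; genes are described as past 1.5-fold at a mean of at least 20 CPM.

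For shares and bins, listed genes were thinned without replacement to 5000 UMIs per cell. Doublets were scored from 2 simulated doublets per cell among 50 nearest neighbours in 30 principal components of 2000 variable genes, and marked at 0.8% per 1000 barcodes, 324 control and 266 mutant cells. They were kept except where stated. Neutrophil-like cells had at least 1% of UMIs on S100a8, S100a9, Camp and Ngp, and stromal-like cells at least 0.2% on Sparc, Col1a1, Col1a2 and Col3a1. Cells were not clustered. Named genes are all 42 members, pathway genes past 1.5-fold over all cells, the nearest 3 genes on each side of Mki67, Arid1a and markers, with Foxm1 named after its values were seen. The 42 members, the lists and the tests were chosen with earlier results of these data known, and the state limit of 10 UMIs and the cells chosen by the other members were added after the values were seen. Coordinates and promoters are from GENCODE M39 on GRCm39, which matched 31977 of 32544 identifiers; Lin54 was not analysed here. Alternatives were TMM factors (edgeR 4.0.16 in R 4.3.3), median of ratios, other totals, equal weight per cell, other gates and other cell sets. Intervals were tested on simulated counts drawn from the Poisson model that they assume. Clustering of UMIs by cell was not simulated, so how the intervals hold in these data was not tested. Python 3.11.15, numpy 2.4.6, scipy 1.17.1, pandas 2.3.3 and scikit-learn 1.9.0 were used.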

Additional observations from a re-analysis of the deposited data

How the results depend on the processing

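No paired analysis was possible because each genotype had 1 library, and for the same reason no replicate could be left out. Mki67 kept a log2 ratio below 0 under all 7 alternatives over all cells and all 11 in the gate; the cause of the values that moved was not tested. Over all cells it was -0.83 with TMM factors, -0.86 with the median of ratios, -0.88 with totals without mitochondrial and ribosomal protein genes and -0.70 with equal weight per cell. In the gate these gave -0.69, -0.70, -0.72 and -0.49, the gate without Mki67 gave -0.64 and the thinned gate -0.56. The members' median over all cells was 0.040, 0.013 and -0.0060 under the first 3 of these scalings. In the gate it was 0.20, 0.19, 0.17 and 0.35 under the 4, 0.35 with at least 10 UMIs, 0.39 in the thinned gate and 0.38 in the thinned gate without Mki67. Of members in the gate, 0 were at least 1.5-fold lower with equal weight per cell, with doublets left out and in both thinned gates; the number higher was 1 under each of the first 3 scalings, 7 with equal weight, 8 in the thinned gate and 7 in the thinned gate without Mki67. Counts over all cells did not move. The difference in gate share was -7.51 points without Mki67, -6.04 thinned and -0.576 thinned without Mki67. Of the other 41 members' values, 268 of 287 over all cells and 422 of 451 in the gate kept their sign. Mki67 in cells past the mitotic limit alone turned from 0.14 to -0.42 with the limit of 10 UMIs. Depth limits the bin without mitotic UMIs, with 65 and 86 Mki67 UMIs.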

Other observations

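The DNA replication and S-phase genes were mostly lower in the mutant library. Of 38 listed genes 34 had a mean of at least 20 CPM over all cells, and 27 of these were below 0. Their median log2 ratio was -0.15, beside 0.022 over all genes at that level. The share of all genes below 0 was not computed. The median of the mitotic members was 0.10 at the same totals and -0.0060 with totals that left out mitochondrial and ribosomal protein genes. The median of the S-phase genes with those other totals was not computed. Summed, the S-phase genes were at 2687 CPM in the control and 2474 CPM in the mutant library. The lowest was Chaf1a, a subunit of the histone chaperone CAF-1, at -0.49, and the highest was Pcna, the replication clamp, at 0.25. None was past 1.5-fold, where 5.61% of all genes were lower and 12.6% higher. In gate cells 24 of 37 were below 0, with a median of -0.079, beside 0.025 over all genes.

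Across cells thinned to 5000 UMIs, the UMIs of each member were correlated with those of the other 41, as a description. These counts share the cell and its library. Pearson's r of Mki67 was 0.53 over 6101 control cells and 0.53 over 5312 mutant cells. Top2a had 0.55 and 0.66, and Ube2c, the highest in both libraries, 0.65 and 0.75. The median over members was 0.37 and 0.46, and r was higher in the mutant library for 41 of the 42 members. Mki67 ranked 5 of 42 in the control library and 14 in the mutant library. The summed UMIs of the members other than Mki67 had a 90th percentile of 30 in control and 39 in mutant cells. Mki67 itself was lower in the mutant library. A part of either in r or in the ranks was not tested.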
